A study of Rattus norvegicus with 18 samples.

Results

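Expression of the Id genes, Id1 to Id4, was examined in A2B5+ and O4+ cells that were sorted by flow cytometry from the brains of male rats on postnatal day 7. The members are all probe sets whose platform annotation gives exactly 1 symbol and that symbol is Id1, Id2, Id3 or Id4. This rule found 8 of the 31142 probe sets that are not controls, and they cover all 4 genes, of 13810 genes that the same naming gives on both arrays. The study used 2 array types, here A and B, which hold 6 and 2 of these probe sets among 15866 and 15276. Each of 5 A2B5+ and 4 O4+ biological replicates came from 1 litter of 10 male pups and has a column on each array type, so each sample pools animals. No strain is stated in the labels, and as labelled the groups differ only in the antigen used for sorting. A2B5 is an antibody against surface gangliosides of glial progenitors and some neurons, and O4 recognises sulfatide and related lipids of late progenitors and oligodendrocytes. The values are linear ratios in which each probe set is scaled on its own, which allows a comparison of arrays within a probe set and none of levels between genes.

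Id proteins are helix-loop-helix proteins without a DNA-binding basic region. They bind E proteins, the common partners of tissue-specific basic helix-loop-helix (bHLH) activators, and so keep factors such as Olig1 and Olig2 from working as dimers on DNA. Bone morphogenetic proteins (BMPs) induce Id genes through Smad transcription factors. In the oligodendrocyte lineage Id2 and Id4 are known as inhibitors of progenitor differentiation, while Id1 and Id3 are also abundant in vessels, and Id4 in astrocytes and neural stem cells.

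The labels were checked against defining markers. Of 12 tested myelin genes 12 were higher in O4+ cells, among them Mbp, a main structural protein of myelin, with a log2 difference of 4.48 ± 0.15 (SE). Pdgfra and Cspg4, surface proteins of progenitors, fell by 2.29 ± 0.61 and 0.95 ± 0.30. These counts come from the fit with 1 row per gene, where 28.8% of 11982 genes were called higher and 17.8% lower. Markers of other cell types were often called lower in O4+ cells. Lower were 13 of 19 endothelial and mural genes, 14 of 15 microglial genes and 8 of 16 astrocyte and radial glia genes. So were 8 of 8 mast cell genes and 12 of 12 genes of dividing cells, and 0 of these lists' genes were higher. The largest fall in each of these lists was -3.85 ± 0.46 for Sox18 (endothelial), -2.12 ± 0.43 for P2ry12 (microglial), -2.36 ± 0.25 for Nes (radial glial), -4.02 ± 0.44 for Mcpt1l1 (mast cell) and -3.67 ± 0.20 for Aspm (mitotic spindle). The largest rise among myelin genes was 6.46 ± 0.20 for Ermn. Among progenitor genes 2 of 6 were higher, led by C1ql1 (2.75 ± 0.62), and 4 lower, and among neuronal genes 3 of 15 were higher, led by Nefm (1.8 ± 0.56), and 7 lower, led by Gad1 (-4.08 ± 0.74). The counts of higher progenitor and neuronal genes are near or under the 28.8% of all genes. With arrays centred 1 neuronal gene was higher and the Nefm call was lost (adjusted p = 0.051), and without A2B5+ replicate 3, O4+ replicate 1 or O4+ replicate 4 the neuronal calls numbered 5 instead of 10. Without O4+ replicate 3 the astrocyte calls numbered 5 instead of 8. The microglial calls numbered 10 instead of 14 without A2B5+ replicate 2, 4 or 5 and without O4+ replicate 1, 3 or 4. In sorted bulk samples, fewer cells of a type and less RNA per cell cannot be told apart. O4+ replicate 2 on array A stood apart from the other O4+ arrays. Its spike-in controls had a median log2 ratio of 0.42, against 0.02 to 0.06 on the other O4+ arrays. On A2B5+ arrays of type A that median ran from -0.62 to -0.02, so the spike-in controls also differed between the populations without overlap, and their part in the results was not tested. On the 100 shared probe sets its deviation from the O4+ mean followed that of O4+ replicate 4 on array B (r = 0.94 across probe sets) and not that of replicate 2 there (r = -0.80). For 0 of 4 O4+ arrays did the same number match best across types, against 5 of 5 A2B5+ arrays. For single probe sets O4+ numbers are therefore used only within a type. Counts of called genes in lists are an exception. There, leaving out an O4+ replicate dropped that number on both types, although these arrays did not match best.

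Id4 was the member with a clear difference, and it was lower in O4+ cells. All 4 Id4 probe sets had a lower mean in O4+ cells, 2 of them, 1 on each array type, with no overlap between the populations and with a call at an adjusted p under 0.05 (limma, Benjamini-Hochberg over all tested probe sets of the type). The difference was about 4-fold on both called probe sets, 4.04-fold and 4.11-fold. Id3 was 2.11-fold lower with overlap and was not called, Id1 was 1.35-fold lower and not called, and the 2 Id2 probe sets pointed in opposite directions without a call. Over the family 2 of 8 probe sets were called lower and 0 higher. The background was high. On array A 14.7% of all tested probe sets were called lower and 32.5% higher, on array B 13.8% and 9.93%, so 1 of 6 members on array A is near the background share. The filter on low values asked for a ratio of 1 or more on 4 of 9 arrays, which scaling to a median of 1 largely fixes, and 8 of 8 members passed it. The 2 called Id4 probe sets passed through their A2B5+ arrays alone, since all their O4+ ratios lay under 1.

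On array A the Id4 probe set 1375120_at had ratios of 2.961, 1.903, 1.156, 1.000 and 2.627 in A2B5+ replicates 1 to 5. In O4+ replicates 1 to 4 it had ratios of 0.420, 0.507, 0.433 and 0.393. Every O4+ array lay below every A2B5+ array, a pattern seen in the lower direction for 10.7% of tested probe sets on array A. The O4+ values lay close together, while A2B5+ replicates 1 and 5 lay well above replicates 3 and 4. The log2 difference, O4+ minus A2B5+, was -2.02 ± 0.31 (SE of the limma fit, n = 5 and 4, adjusted p = 6.4e-04). After removal of the pattern shared by probe sets of low median, the SD of its O4+ values was 0.096. That SD had a median of 0.056 in probe sets with a median ratio under 1 and 0.29 in those with a median of 1. The SD of 1375120_at lay between these medians, nearer the first. How common so small an SD is among probe sets with a median of 1 was not examined. Ratios carry no level, so whether its O4+ signal was near the lowest measurable was not tested, and the size of its difference is uncertain.

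On array B the Id4 probe set 1394022_at had ratios of 1.372, 1.277, 1.330, 1.000 and 1.276 in A2B5+ replicates 1 to 5. Its O4+ ratios were 0.234, 0.410, 0.279 and 0.313 in replicates 1 to 4. Here too the populations did not overlap, as in the lower direction for 13.0% of tested probe sets on array B, and A2B5+ replicate 4 was the lowest of its group. The log2 difference was -2.04 ± 0.17 (adjusted p = 7.9e-05). The corresponding SD of its O4+ values was 0.34, well above the median of 0.048 in probe sets with a median ratio under 1 on array B.

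The other Id4 probe sets had smaller differences. On array B, 1385923_at had ratios of 1.098, 2.361, 0.913, 1.000 and 1.640 in A2B5+ cells and 0.358, 0.429, 0.682 and 1.037 in O4+ cells. The populations overlapped through O4+ replicate 4, the array that matches O4+ replicate 2 of array A. The log2 difference was -1.19 ± 0.38 (adjusted p = 0.051), and without O4+ replicate 4 it was -1.48 ± 0.35 and called (adjusted p = 0.020). Both array B probe sets were designed from the same sequence entry and are not independent of each other. On array A, 1375183_at had ratios of 1.000, 1.316, 1.336, 0.971 and 2.489 in A2B5+ cells and 0.936, 1.219, 0.769 and 0.915 in O4+ cells. Here 3 of 4 O4+ arrays lay below all A2B5+ arrays and O4+ replicate 2 lay among them, with a log2 difference of -0.50 ± 0.27 (adjusted p = 0.14). Without A2B5+ replicate 5 that difference was -0.27.

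**Figure D1:**
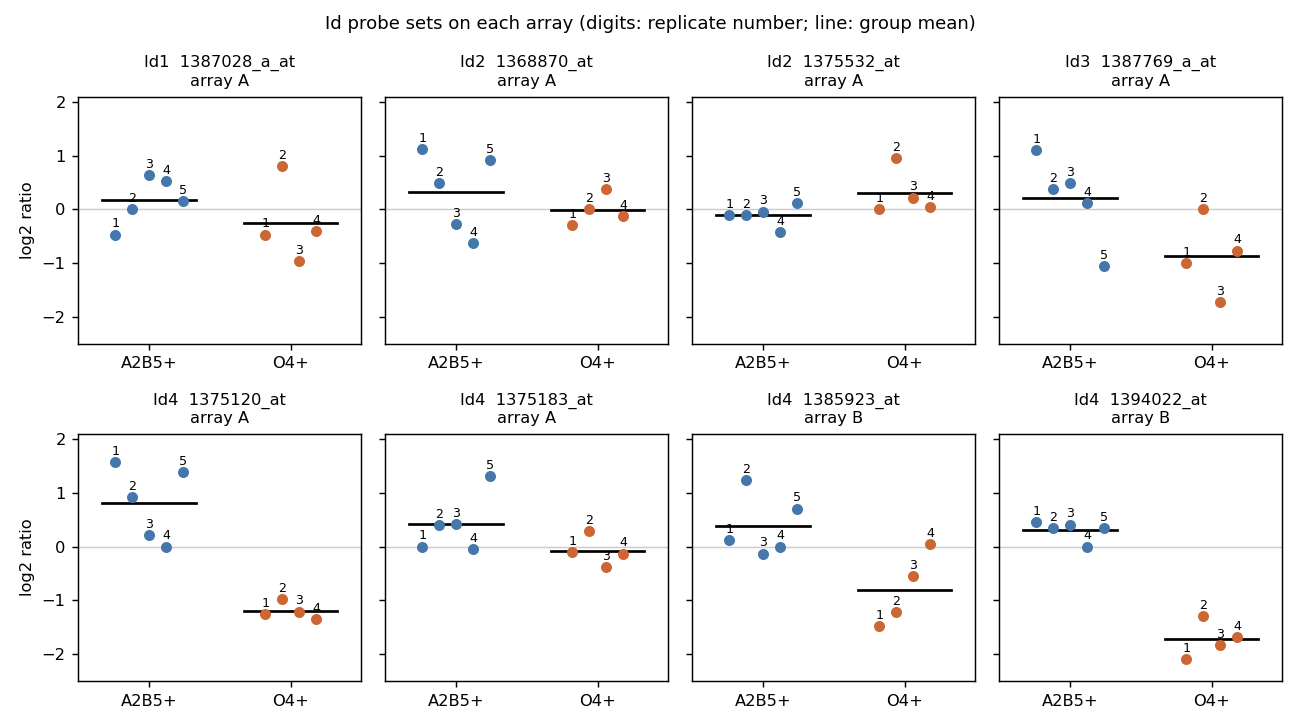
Log2 ratio of the 8 Id probe sets on each array (y axis), A2B5+ arrays in blue and O4+ arrays in orange, with digits for the replicate number and a line at the group mean. The populations do not overlap for Id4 1375120_at and Id4 1394022_at and overlap for the other 6 probe sets.

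Id3, measured by 1387769_a_at on array A, had ratios of 2.143, 1.292, 1.409, 1.077 and 0.484 in A2B5+ replicates 1 to 5. In O4+ replicates 1 to 4 its ratios were 0.499, 1.000, 0.302 and 0.586. A2B5+ replicate 5 lay below 3 of the 4 O4+ arrays, and O4+ replicate 2 was the highest of its group. The log2 difference was -1.08 ± 0.43 (adjusted p = 0.059). It was called without A2B5+ replicate 5 (-1.39 ± 0.35, adjusted p = 0.012) and without O4+ replicate 2 (-1.37 ± 0.43, adjusted p = 0.029), so 1 array on either side decided the call.

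Id1, measured by 1387028_a_at on array A, had ratios of 0.724, 1.000, 1.555, 1.439 and 1.111 in A2B5+ cells and 0.723, 1.737, 0.513 and 0.758 in O4+ cells. O4+ replicate 2 was the highest of all 9 arrays, while 2 of the 4 O4+ arrays lay below all A2B5+ arrays. For O4+ replicate 1 this was a near tie, 0.723 against 0.724 in A2B5+ replicate 1. The log2 difference was -0.43 ± 0.34 (adjusted p = 0.31). Without O4+ replicate 2 it was -0.78 ± 0.26 and called lower (adjusted p = 0.036).

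Id2 had a probe set pointing each way. The ratios of 1368870_at were 2.171, 1.401, 0.825, 0.644 and 1.887 in A2B5+ cells and 0.814, 1.000, 1.289 and 0.923 in O4+ cells. All O4+ values lay inside the A2B5+ range, and the log2 difference was -0.33 ± 0.35 (adjusted p = 0.44). It ran from -0.57 without A2B5+ replicate 4 to -0.13 without A2B5+ replicate 1 and was not called in either case. The ratios of 1375532_at were 0.926, 0.924, 0.970, 0.746 and 1.088 in A2B5+ cells and 1.000, 1.950, 1.166 and 1.025 in O4+ cells. Its log2 difference was 0.42 ± 0.21 (adjusted p = 0.12), and 0.20 ± 0.15 without O4+ replicate 2, the highest array.

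**Figure D2:**
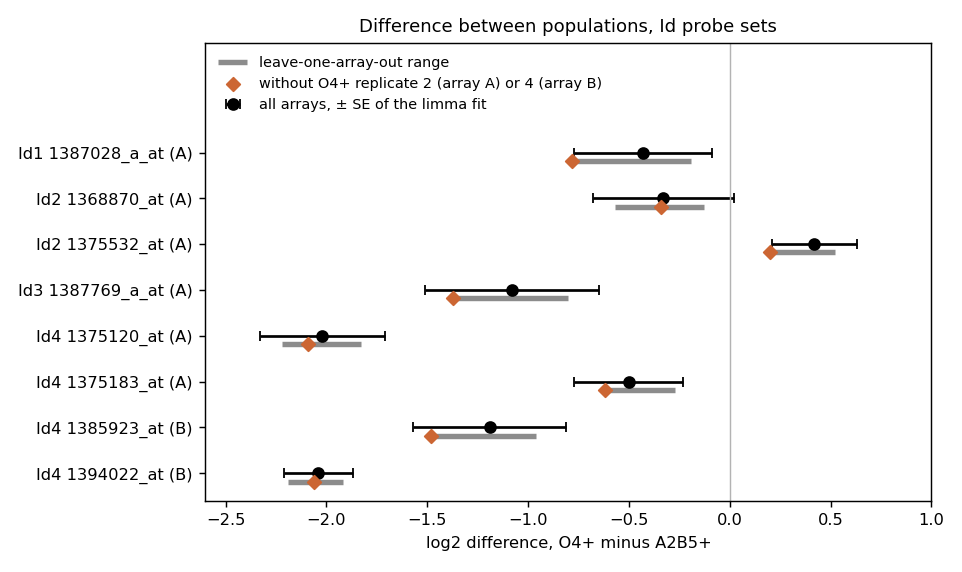
Log2 difference, O4+ minus A2B5+ (x axis), for each Id probe set with array type in parentheses. Black points with bars give the limma estimate ± SE, grey bars the range when each array is left out in turn, and orange diamonds the value without O4+ replicate 2 on array A or replicate 4 on array B; Id4 1375120_at and 1394022_at stay between -2.22 and -1.83.

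Whether members differed from one another was asked on array A, where all 4 genes are measured. For each of 6 pairs, the difference of the gene means (each the mean over its probe sets) was taken within each array and compared between populations by a two-sided exact permutation test over 126 splits, adjusted over the 6 pairs. Id2 minus Id4 averaged -0.51 with an SD of 0.20 over the 5 A2B5+ arrays and 0.78 with an SD of 0.24 over the 4 O4+ arrays. This change of 1.30 had an exact p = 0.0079, the smallest that the splits allow (adjusted p = 0.048), with every O4+ array above every A2B5+ array. It rested on 1375120_at: with 1375183_at standing for Id4 it was 0.16 or 0.92, depending on the Id2 probe set, and was not called. The other 5 pairs were not called, with changes of -0.47 for Id1 minus Id2, 0.65 for Id1 minus Id3, 0.83 for Id1 minus Id4, 1.12 for Id2 minus Id3 and 0.18 for Id3 minus Id4. For these pairs the exact test gave adjusted p-values of 0.27 to 0.90.

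The promoters of Id2 and Id4 are shown because this is the pair whose change differed between populations. Each is the 250 bases before the RefSeq start in build GRCr8, read 5′ to 3′ on the gene's strand, from chr6:47470996-47471245 (minus strand) and chr17:16598294-16598543 (minus strand). Capitals mark the CCAAT box on either strand, which NF-Y binds, and the E-box, searched as CANNTG, which bHLH dimers bind. The motifs do not overlap here.
Id2: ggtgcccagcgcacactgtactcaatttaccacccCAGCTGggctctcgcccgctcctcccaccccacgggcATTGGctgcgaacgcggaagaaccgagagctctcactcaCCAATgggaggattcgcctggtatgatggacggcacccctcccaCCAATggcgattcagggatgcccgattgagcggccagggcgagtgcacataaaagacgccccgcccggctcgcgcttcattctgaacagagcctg
Id4: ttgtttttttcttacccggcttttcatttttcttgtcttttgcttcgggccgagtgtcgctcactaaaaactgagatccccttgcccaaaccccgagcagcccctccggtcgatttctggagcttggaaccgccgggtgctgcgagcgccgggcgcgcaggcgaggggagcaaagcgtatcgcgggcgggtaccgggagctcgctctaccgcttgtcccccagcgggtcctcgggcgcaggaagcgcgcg
The Id2 window holds 3 CCAAT matches, starting at -178, -139 and -95 from the start, and 1 E-box at -215, and the Id4 window holds 0 of either. Id1 has 1 CCAAT match and 1 E-box, and Id3 has 0 of either. Of 33469 promoters of the same length 34.0% hold the CCAAT box and 65.5% the E-box. A GC-rich element of BMP-responsive promoters, searched as GGCGCC, was in 0 of the 4 Id windows and in 8.69% of all. These matches describe letters in a short window and were not set against binding data. The Id2 and Id4 windows have the same GC content, 62.8%, against a median of 51.2% over all promoters.

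Within a population the Id probe sets followed different arrays. In A2B5+ cells, 1368870_at of Id2 and 1375120_at of Id4 ranked the 5 arrays in the same order, with replicates 1, 5 and 2 high and replicates 3 and 4 low. The other array A probe sets of these genes did not share that order. For 1375183_at of Id4, A2B5+ replicate 3 (log2 ratio 0.42) lay above replicate 1 (0.00). For 1375532_at of Id2, A2B5+ replicate 3 (-0.04) lay above replicates 1 and 2 (both -0.11). On the same arrays the mean log2 ratio of 5 ependymal and choroid plexus genes was 0.80, 0.37, 0.05, -0.22 and 0.68 in replicates 1 to 5. The members varied unequally. Their SD over the A2B5+ arrays was 1.03 for Foxj1 and 1.04 for Tekt1, but 0.22 for Ttr, 0.13 for Folr1 and 0.23 for Otx2. The mean of 13 immediate early and stress response genes, a list added after the values were seen, was 0.89, 0.42, -0.23, -0.09 and 0.90. Both lists were also high on A2B5+ replicates 1, 2 and 5. Other lists ordered these arrays differently. The astrocyte list was 0.44, 0.10, 0.69, 0.56 and -0.02 in replicates 1 to 5. The progenitor list was 1.19, 0.31, 1.09, 1.28 and -0.10, and the neuronal list 0.25, 0.08, 0.94, 0.76 and -0.25. These were higher on replicates 3 and 4 than on 2 and 5. The part of any of these lists in the Id2 and Id4 values was not tested. In O4+ cells 2 of 6 tested ependymal and choroid genes and 7 of 13 stress genes were lower and 0 higher, led by Ccno (-3.6 ± 0.72), of multiciliated cells, and Egr1 (-1.26 ± 0.13), an immediate early gene. Of all genes 17.8% were called lower, and the 6 ependymal and choroid genes are too few to set their count apart from that share. The ependymal calls numbered 1 without O4+ replicate 1 or 3. The stress calls numbered 3 without A2B5+ replicate 1 or O4+ replicate 3, and 4 without A2B5+ replicate 2, A2B5+ replicate 5 or O4+ replicate 4. Over the arrays the ependymal list ran from -0.22 to 0.80 in A2B5+ and from -0.59 to 0.21 in O4+ cells, and the stress list from -0.23 to 0.90 and from -0.83 to -0.05.

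Id3 and Id1 in O4+ cells were highest on replicate 2 and lowest on replicate 3. The endothelial and mural list, 16 genes on array A, was also highest there on replicate 2 (-0.53) and lowest on replicate 3 (-1.77), and ran from 0.03 to 0.52 in A2B5+ cells. This order was not particular to vessels. On the same O4+ replicates the dividing-cell list had its extremes (-1.08 and -1.75), as did the ependymal and choroid list (0.21 and -0.59). The astrocyte list was instead highest on O4+ replicate 4 (-0.21). Among A2B5+ arrays the endothelial list was lowest on replicate 3 (0.03), where Id1 was highest (log2 ratio 0.64). Id3 was lowest on A2B5+ replicate 5 (-1.05), where that list was 0.16. The microglial list, 14 genes on array A, was 0.06 on O4+ replicate 2 against -1.43 to -0.75 on the other O4+ arrays, and ran from -0.04 to 0.86 in A2B5+ cells. The astrocyte list, 15 genes on array A, ran from -0.02 to 0.69 in A2B5+ and from -0.72 to -0.21 in O4+ cells. The endothelial markers Pecam1 and Cldn5 fell by 2.02 ± 0.32 and 2.03 ± 0.44. The astrocyte water channel Aqp4 fell by 0.82 ± 0.25, and Gfap, the astrocyte filament, had a difference of -0.43 ± 0.31 (adjusted p = 0.27). The part of these cell types in the Id differences was not tested, and ratios carry no level from which the absence of a marker could be read.

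**Figure D3:**
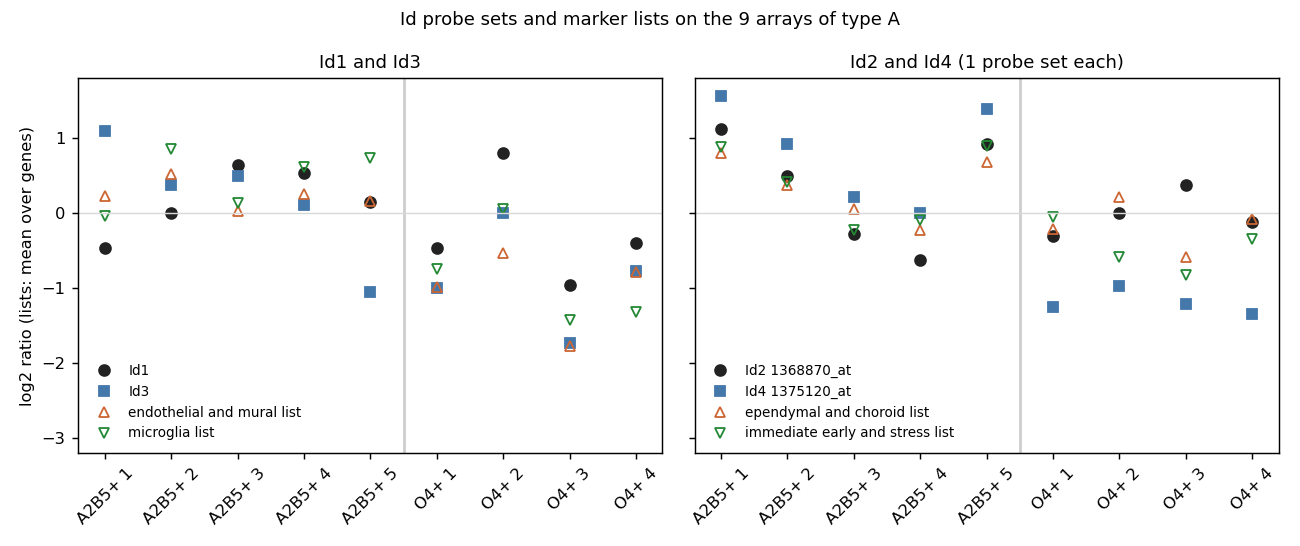
Log2 ratios on the 9 arrays of type A (x axis, replicates in label order) for Id1 and Id3 beside 2 marker lists (left), and for 1 probe set each of Id2 and Id4 beside 2 lists (right); filled symbols are Id probe sets and open symbols the mean over a list's genes. O4+ replicate 2 carries the highest O4+ value of Id1 (0.80), Id3 (0.00) and both lists at left, and A2B5+ replicates 1, 2 and 5 the highest A2B5+ values at right. The other array A probe sets of Id2 and Id4, not shown here, ordered the A2B5+ arrays differently.

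The genes with the most similar values over the 9 arrays differed from member to member. They were chosen by the mean absolute log2 difference from the Id probe set, among genes of the same array type whose SD was at least 0.8 of the Id probe set's, and are given as a description. For 1375120_at of Id4 they were Pecam1, an adhesion protein of endothelial cells (0.14), Plekhg5 (0.19) and Sh3bgr (0.20). For 1394022_at of Id4 they were Ddx11, a helicase (0.19), Gpc4, a heparan sulfate proteoglycan (0.19), and Flywch1 (0.20). For 1385923_at they were the kinetochore gene Cenpw (0.15), Ly96, a co-receptor of innate immunity (0.18), and Epsti1 (0.18), and for 1375183_at Slc31a1, a copper transporter (0.12), Rfwd3 (0.16) and Rgs14 (0.17). For Id3 they were Mmp14, a membrane metalloprotease (0.23), Cavin3, of caveolae (0.33), and the matrix proteoglycan Dcn (0.33). For Id1 they were Slco1a4, a transporter of brain endothelium (0.17), Rfc4, of DNA replication (0.20), and Lama1, a laminin chain (0.22). For 1368870_at of Id2 they were Dnai7, an axonemal dynein gene (0.16), Bbox1, of carnitine synthesis (0.18), and Lrguk (0.19), and for 1375532_at Atp5mf, of ATP synthase (0.06), Tshr (0.08) and Rrp15 (0.08). No gene was named for more than 1 Id probe set.

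The partners and regulators of Id proteins were read from the fit with 1 row per gene, where 28.8% of 11982 genes were called higher and 17.8% lower (18.7% and 20.4% with each array centred on its median, which moved the median difference of array A probe sets from 0.26 to 0.09). Over 10 lists, 64 genes were tested, of which 12 were higher and 21 lower, or 7 and 24 with arrays centred. Their median difference was -0.29, against 0.14 for all genes.

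Among the E proteins, which Id proteins bind directly, Tcf12 rose by 0.49 ± 0.11 (adjusted p = 0.0064) without overlap. Tcf3 had a difference of -0.62 ± 0.27 (adjusted p = 0.089) and Tcf4 of -0.17 ± 0.26 (adjusted p = 0.61). The Tcf12 call was absent when the probe set with the smallest p stood for the gene, since 0 of 3 E proteins were then called. Of 22 listed tissue-specific bHLH activators 9 could be tested, and 2 were higher and 3 lower. Olig1, a factor of the oligodendrocyte lineage, rose by 1.5 ± 0.34, and Ptf1a rose by 0.51 ± 0.15 but was not called with arrays centred. Tal1, a factor of blood and endothelial development, fell by 2.39 ± 0.28, and the neuronal factor Bhlhe22 fell by 1.85 ± 0.39. Olig2 lay below the filter. Of 10 Hes, Hey and Bhlhe40/41 repressors 1 was higher and 4 lower. The Notch targets Hey1 and Hes1 fell by 1.71 ± 0.30 and 1.21 ± 0.35 and Bhlhe41 by 1.21 ± 0.18, while Hes3 rose by 0.31 ± 0.12, a call lost with arrays centred (adjusted p = 0.26). Without O4+ replicate 1, 3 or 4 the calls among these repressors numbered 3 instead of 5.

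The other reported binding partners, of the retinoblastoma family and the Ets factors, included 1 higher and 4 lower of 8. The retinoblastoma gene Rb1 rose by 0.68 ± 0.22 and was not called with arrays centred (adjusted p = 0.10). Its relative Rbl1 fell by 2.1 ± 0.19, and the Ets factor Ets1 by 2.19 ± 0.28. Of the genes for Id protein turnover, Usp1, a deubiquitinase that stabilises Id proteins, fell by 0.70 ± 0.18 (adjusted p = 0.0099), its cofactor Wdr48 differed by less than 0.01 (SE 0.21), and Fzr1, an activator of the anaphase-promoting complex, had a difference of -0.43 ± 0.21 (adjusted p = 0.12). Of 5 cyclin-dependent kinase inhibitor genes, some of which E proteins activate, 1 was higher and 3 lower. Cdkn1c rose by 2.53 ± 0.25, Cdkn2c fell by 1.51 ± 0.13 and Cdkn1a by 0.80 ± 0.24.

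In the BMP pathway, which induces Id genes, 1 of 5 ligands was called, or 2 when the probe set with the smallest p stood for a gene. Bmp4 was 21.4-fold higher in O4+ cells (4.42 ± 0.56, adjusted p = 2.2e-04) without overlap, with a mean log2 ratio of -1.57 in A2B5+ and 2.85 in O4+ cells. Of 7 receptors and co-receptors 1 was higher and 4 lower. Bmpr1a, a type I BMP receptor, rose by 0.71 ± 0.25, which was not called with arrays centred (adjusted p = 0.14). Eng and Acvrl1, a co-receptor and a type I receptor of endothelial cells, fell by 1.70 ± 0.27 and 1.69 ± 0.35, alongside the endothelial list described above. The receptors Acvr1 (-1.63 ± 0.31, adjusted p = 0.0021 by limma) and Bmpr2 (-1.28 ± 0.32, adjusted p = 0.0095) were also called lower. None of the 3 tested Smads that carry the signal was called by limma: Smad1 had a difference of -0.31 ± 0.18, Smad4 of 0.01 ± 0.12 and Smad5 of -0.47 ± 0.18 (adjusted p = 0.056, and 0.026 with arrays centred). Without O4+ replicate 3 the Smad calls numbered 1, and with the probe set of smallest p 2. Of 11 inhibitors 4 were higher and 2 lower. Sostdc1, a secreted BMP antagonist, rose by 1.55 ± 0.41 and the ubiquitin ligase Smurf1 by 1.38 ± 0.23, while the antagonist Nog fell by 1.01 ± 0.27 and Smurf2 by 0.56 ± 0.11.

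**Figure D4:**
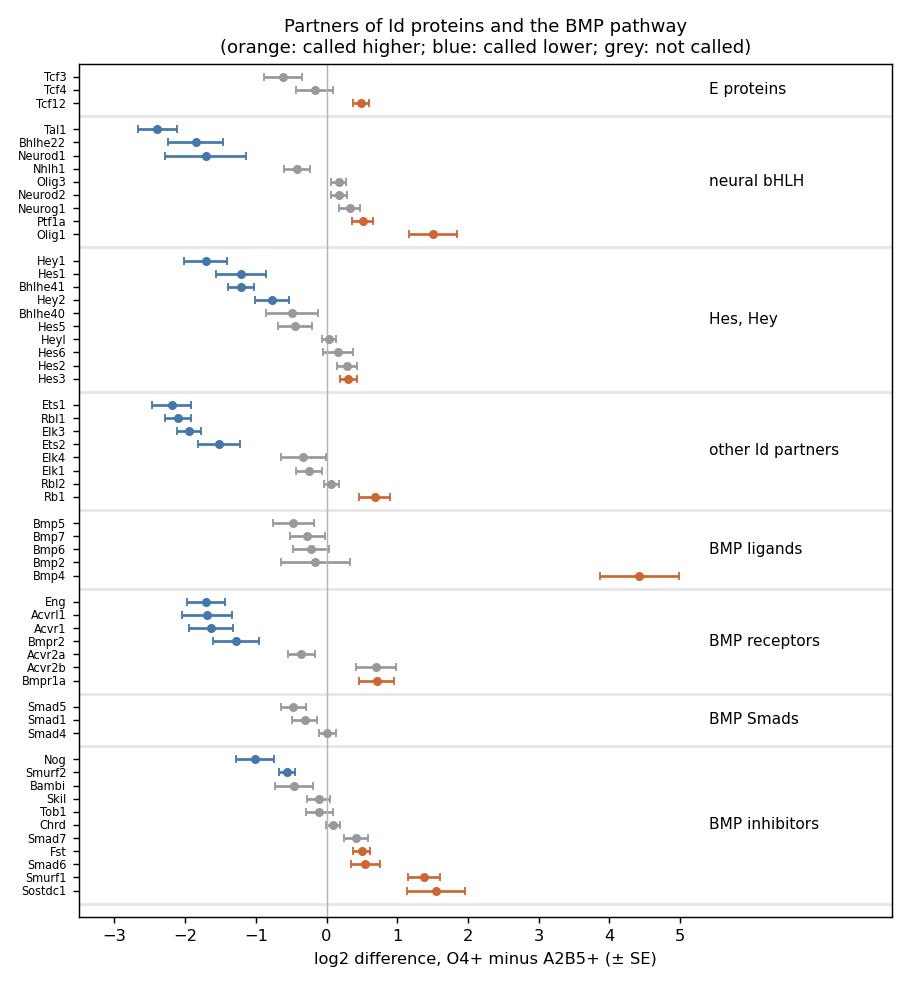
Log2 difference, O4+ minus A2B5+ (x axis, point ± SE), from the fit with 1 row per gene for partners of Id proteins and the BMP pathway, grouped by role. Orange marks genes called higher, blue genes called lower and grey genes not called at an adjusted p under 0.05; Bmp4 at 4.42 is the highest point shown and Tal1 at -2.39 the lowest.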

How the data were processed

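Per the submitters' processing notes the arrays were summarised with GCRMA (no version stated), and the authors deposited linear ratios whose divisor no header or label states. The 9 ratios of most probe sets have a median of exactly 1 (12995 of 15923 on array A, 11050 of 15333 on array B, controls included). Log2 ratios were taken without further normalization. The filter kept probe sets, controls apart, with ratios of 1 or more on 4 or more of the 9 arrays (13098 and 11136). Symbols came from the platform annotation. A gene row is the mean of a gene's tested probe sets, from array A where it has any there. O4+ and A2B5+ arrays, grouped by title, were compared with limma 3.58.1 in R 4.3.3 (lmFit, eBayes, two-sided, Benjamini-Hochberg per fit, threshold 0.05), tested on simulated data. Replicates are separate litters per the labels. The number of arrays limits the precision.

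Named genes are all Id probe sets, all tested members of lists of up to 4 genes, the 2 largest called rises and falls of longer context lists, the largest of each marker list, 8 defining markers of which 7 were tested, and the 3 most similar genes per Id probe set. Acvr1, Bmpr2, Foxj1, Tekt1, Ttr, Folr1 and Otx2 are named in addition. The members, lists and filter were chosen with earlier results of these data known. Alternatives were centring, quantile normalization, other filters, a robust trend, array weights, a replicate block and leaving out each array. Promoter sequences are from RefSeq (GRCr8), where all 4 Id genes matched.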

Additional observations from a re-analysis of the deposited data

Results flagged for a closer look

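For Id4 1394022_at on array B, A2B5+ replicate 4 had a log2 ratio of 0.00, farther below the other A2B5+ arrays than Dixon's criterion allows for 5 values. Of 16 groups of Id values looked at, 1 was marked in this way, where chance marks about 5% of groups. The array still lay above all O4+ arrays of that probe set.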

How the results depend on the processing

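Id4 1375120_at and 1394022_at were called lower under every alternative run, including 9 fits each that left out 1 array (-2.22 to -1.83 and -2.19 to -1.92). With array weights Id1 (-0.78), Id3 (-1.29) and Id4 1385923_at (-1.16) were also called lower. Id4 1385923_at was called with quantile normalization (-1.18) and with a robust trend (-1.19). Leaving out each array in turn gave -0.78 to -0.19 for Id1, -1.39 to -0.80 for Id3 and -1.48 to -0.96 for Id4 1385923_at, with 1, 2 and 1 calls of 9. The change of Id2 minus Id4 was 0.16 and 0.92 with 1375183_at for Id4. Without 1 array it was 1.20 to 1.39 and not called (adjusted p 0.086 to 0.17), each time at the smallest exact p that the fewer splits allow, 0.029 or 0.018. Id3 minus Id4, never called, turned to -0.58 with 1375183_at for Id4 and ran from -0.32 to 0.41 without 1 array. Probe sets called higher on array A numbered 4259, but 2439 with arrays centred, 2190 after quantile normalization and 7128 without a filter. Same-numbered A2B5+ and O4+ replicates are not known to share litters, and their deviations correlated at 0.02 to 0.31 on array A and -0.20 to 0.24 on array B, so the numbers were not taken as pairs. A fit with the replicate number as a block, without A2B5+ replicate 5, called Id3 lower (-1.39), as did leaving out that array alone, and gave 4129 higher and 2103 lower on array A and 870 and 1326 on array B.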
